A study of Mus musculus with 6 samples.

Results

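The 9 genes described here are interferon-stimulated genes, genes that cells switch on when interferon binds its receptors. They are Irf7, Isg15, Usp18, Ifit1, Ifit3, Oasl2, Rsad2, Bst2 and Ifi27l2a, found by symbol among the 22064 gene rows of the expression table. They were chosen by the FPKM values of these 6 libraries, LAS against sham, which were already known, so their own differences are described without a test. Each of the 9 had a value in every library, the lowest being 0.82 FPKM, and all 9 passed the filter on low values (0.5 FPKM or more in 3 or more libraries), as did 14006 genes in all.

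RNA came from ipsilateral dorsal root ganglia (DRG), the clusters of sensory neuron cell bodies beside the spinal cord, at lumbar levels 3 to 5 on day 14. The mice were wild type C57BL/6, 6 to 8 weeks old. In LAS (lateral ankle sprain) model mice, 2 lateral ligaments of the ankle, the ATFL and the CFL, were cut through a small skin incision (3 libraries). In sham mice the incision was made and no ligament was cut (3 libraries), so both groups share the skin wound. No source used here gives the sex of the sequenced mice or the number of animals in a library, and errors therefore measure the spread between these libraries. Values are FPKM, fragment counts scaled to transcript length and library size, in which levels of different genes can be set side by side. The reads behind an FPKM value cannot be read from the files, so no counting interval is given.

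Type I interferons bind the receptor chains Ifnar1 and Ifnar2, and the kinases Jak1 and Tyk2 then pass on the signal. It leads to the complex ISGF3, of which Irf9 is a part and which binds the interferon-stimulated response element (ISRE) near the start of its target genes. Many products of those genes hold back viruses, and others, such as Usp18, switch the signal off. Sensory neurons carry interferon receptors, and neurons, glia and immune cells of the ganglion can all respond to interferon.

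The promoters are shown because the ISRE is the sequence through which ISGF3 acts. RefSeq windows (GRCm38.p6) running from 250 bases before to 50 bases after the start were matched for 7 of the 9 genes. Ifi27l2a and Usp18 were not matched. The core searched for was 2 copies of GAAA with any 2 bases between them, on either strand. It lay in 5 of the 7 windows, against 3.44% of 32851 promoter windows of the same length. It was also found for 42 of 104 other interferon pathway genes (40.4%), on the lists described below, and for 3.99% of all genes with a window. Of the GTPase and chemokine genes induced by interferon-gamma, 10 of 11 held it. The 9 genes were chosen as interferon genes, so no test was made. The stretches run from -160 to -41 relative to the start, 5′ to 3′ on the strand of the gene, with every match to the core in capitals. Matches read GAAA on the strand of the gene and TTTC where they lie on the opposite strand.
Ifit1 (chr19:34640729-34640848, + strand): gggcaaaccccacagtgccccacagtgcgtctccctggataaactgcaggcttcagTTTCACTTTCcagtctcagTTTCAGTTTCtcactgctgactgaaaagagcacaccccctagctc
Ifit3 (chr19:34583369-34583488, + strand): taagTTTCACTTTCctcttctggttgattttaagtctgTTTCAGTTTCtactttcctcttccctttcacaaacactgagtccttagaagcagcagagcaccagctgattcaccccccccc
Isg15 (chr4:156200859-156200978, - strand): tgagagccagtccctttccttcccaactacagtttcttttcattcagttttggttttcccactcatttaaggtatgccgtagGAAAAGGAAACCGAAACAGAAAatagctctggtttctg
Bst2 (chr8:71537513-71537632, - strand): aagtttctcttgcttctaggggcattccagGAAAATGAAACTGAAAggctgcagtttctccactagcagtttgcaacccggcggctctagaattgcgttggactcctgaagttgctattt
Rsad2 (chr12:26456493-26456612, - strand): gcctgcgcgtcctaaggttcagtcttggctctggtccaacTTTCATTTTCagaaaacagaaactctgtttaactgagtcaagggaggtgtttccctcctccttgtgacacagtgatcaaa
Ifit1 and Ifit3 each hold 2 separate matches on the opposite strand. Isg15 holds 3 matches, each overlapping the next, and Bst2 holds 2 that overlap. Rsad2 holds 1, from -120 to -111. No match was found in the windows of Irf7 and Oasl2. The gamma-activated site TTCNNNGAA, an element of interferon-gamma targets, was found in 1 of the 7 windows, that of Bst2, where it overlaps the ISRE core, and in 8.3% of all windows. A match describes the letters only.

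**Figure D1:**
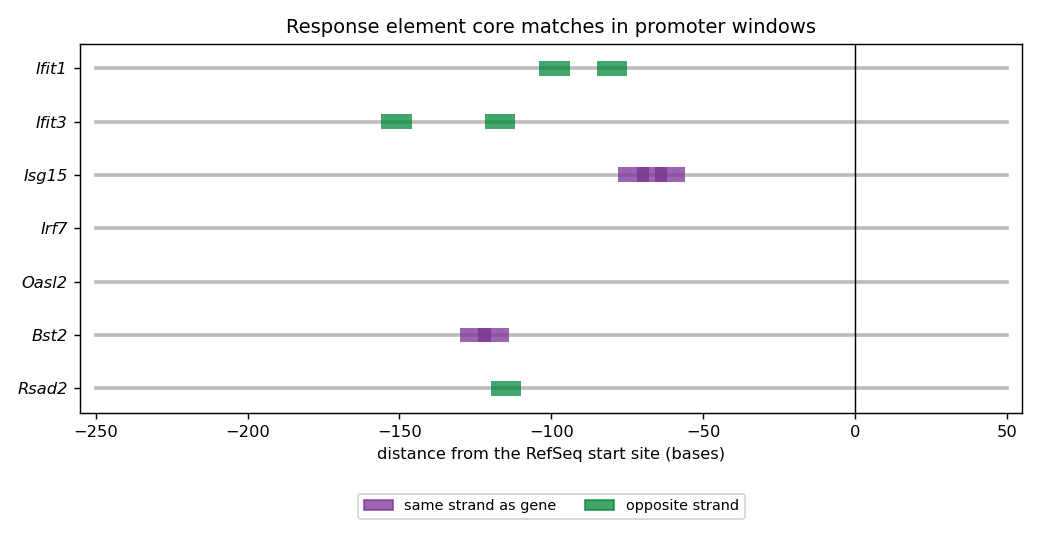
Position of each ISRE core match (2 copies of GAAA with 2 bases between them) in the RefSeq promoter windows of the 7 matched genes, in bases from the start. Ifit1, Ifit3, Isg15, Bst2 and Rsad2 hold matches, all of them before the start, and Irf7 and Oasl2 hold none.

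Over the whole table, sham replicate 3 was unlike the rest. The first principal component (57.2% of the variance) put it at 47.59, LAS replicate 1 at 7.97 and the others from -20.13 (sham replicate 1) to -7.3 (LAS replicate 3). Fold changes of LAS against sham are therefore also given without sham replicate 3. Uchl1, a neuronal ubiquitin hydrolase that marks sensory neurons, was at 2102 to 2338 FPKM in all 6 libraries. The summed level of 7 sensory neuron markers ran from 7006 to 7414 FPKM.

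Every one of the 9 genes was highest in sham replicate 3, the pattern in 33.7% of all tested genes. Its level there was 1.36 to 2.60 times the mean of the other 5 libraries. In 8 of the 9, all but Oasl2, it was at least 1.5 times that mean, as in 6.12% of tested genes. The median was 2.12 for the 9 genes and 1.02 for all tested genes. In the other 5 libraries, 7 of the 9 peaked in LAS replicate 1, against 25% of tested genes. Ifit3 and Isg15 were then highest in sham replicate 1.

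Irf7 encodes the transcription factor that drives further type I interferon production and is itself induced by interferon. It was at 4.47, 3.35 and 9.72 FPKM in sham replicates 1 to 3 and at 5.84, 3.93 and 3.43 FPKM in LAS replicates 1 to 3. The sham values enclosed all 3 LAS values. Among the 5 libraries without sham replicate 3, LAS replicate 1 was highest, 0.62 above the mean of the other 4 on the log2 scale.

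Isg15 encodes a ubiquitin-like protein that is joined to other proteins after interferon, and Usp18 encodes the protease that removes it and also blocks the type I receptor. Isg15 was at 4.74, 4.30 and 11.01 FPKM in sham and at 4.49, 3.59 and 4.09 FPKM in LAS libraries. Its level in sham replicate 3 was 2.60 times the mean of the other 5 libraries, the largest ratio among the 9 genes, while the other 5 lay within 3.59 to 4.74 FPKM. Usp18, the lowest of the 9, was at 1.25, 0.95 and 2.74 FPKM in sham and at 1.76, 0.94 and 0.82 FPKM in LAS libraries. LAS replicate 1 was second, and the remaining 4 libraries lay within 0.82 to 1.25 FPKM. Of the 50-base words in its transcripts, 2.81% also occur in Gm44148 on the opposite strand, and whether counting used strand is not stated.

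Ifit1 and Ifit3 encode proteins of the IFIT family, of which Ifit1 binds viral RNA that lacks the methyl marks of host mRNA caps. Ifit1 was at 6.24, 5.78 and 12.78 FPKM in sham and at 6.76, 5.85 and 5.46 FPKM in LAS libraries. Apart from sham replicate 3, its 5 values spanned only 5.46 to 6.76 FPKM. Ifit3 was at 10.21, 8.25 and 14.69 FPKM in sham and at 9.89, 6.96 and 6.67 FPKM in LAS libraries. Here LAS replicates 2 and 3 were the lowest libraries and LAS replicate 1 lay within the sham values. Ifit3 shares 51.2% of its 50-base words with the neighbouring copy Ifit3b, so its level is uncertain, and Ifit1 shares 7.13% with Ifit1bl1 and Ifit1bl2.

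Oasl2 encodes an oligoadenylate synthetase-like protein with antiviral activity. It was the highest of the 9 and had the smallest ratio in sham replicate 3, at 18.99, 19.35 and 27.01 FPKM in sham and at 21.37, 20.52 and 19.42 FPKM in LAS libraries. Sham replicates 1 and 2 were the lowest libraries, just below the lowest LAS value. Rsad2 encodes viperin, an enzyme that makes a chain-terminating nucleotide against viral polymerases. It was at 2.29, 1.68 and 5.37 FPKM in sham and at 3.52, 2.32 and 2.84 FPKM in LAS libraries. As with Oasl2, sham replicates 1 and 2 lay below all 3 LAS libraries and sham replicate 3 above them.

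Bst2 encodes tetherin, a membrane protein that holds budding virus particles on the cell surface. It was at 11.80, 10.17 and 20.65 FPKM in sham and at 13.28, 10.44 and 9.61 FPKM in LAS libraries. LAS replicate 1 was again the library next below sham replicate 3. Ifi27l2a encodes a small interferon-induced protein of mitochondrial and nuclear membranes. It was at 12.25, 14.28 and 31.26 FPKM in sham and at 14.45, 13.54 and 10.33 FPKM in LAS libraries. The gap between sham replicate 3 and the next library was the widest of the 9 in FPKM.

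**Figure D2:**
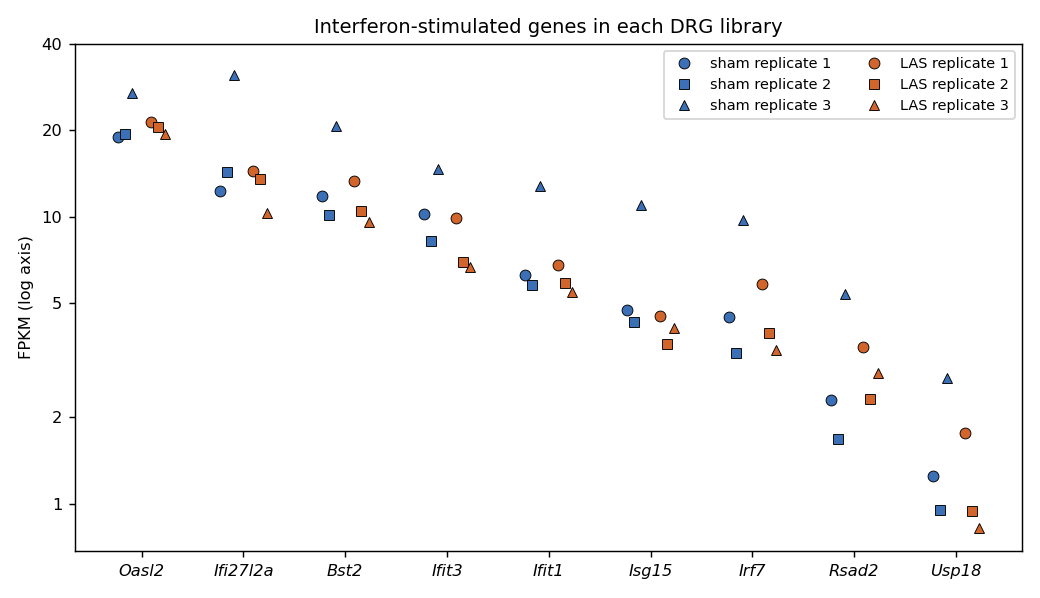
FPKM (log axis) of each of the 9 interferon-stimulated genes in the 6 libraries, with sham and LAS libraries in separate colours. In every gene the highest point is sham replicate 3, up to 2.60 times the mean of the other 5 in Isg15, and without it the groups still overlap in all genes but Oasl2 and Rsad2.

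Ordered by mean level over the 6 libraries, Oasl2 was at 21.1 FPKM, Ifi27l2a at 16.02 FPKM, Bst2 at 12.7 FPKM, Ifit3 at 9.45 FPKM and Ifit1 at 7.15 FPKM. Isg15 followed at 5.37 FPKM, Irf7 at 5.12 FPKM, Rsad2 at 3.003 FPKM and Usp18 at 1.41 FPKM. The median tested gene was at 8.86 FPKM, so the 9 genes lay on both sides of it. The ranges of all neighbours in this order overlapped. Within libraries the order was firmer, each gene being above the next in 6 of 6 libraries except Oasl2 over Ifi27l2a (5 of 6) and Isg15 over Irf7 (4 of 6).

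With all 6 libraries, 8 of the 9 genes had a lower mean log2 level in LAS than in sham and 1, Rsad2, a higher one. Of all tested genes 48.3% were lower and 51.7% higher. The median log2 fold change was -0.36 for the 9 genes and 0.00 for all tested genes. It ranged from -0.58 ± 0.33 (SE) for Isg15 to 0.05 ± 0.40 for Rsad2, on the log2(FPKM + 0.1) scale, which understates changes of low genes. Each SE of a log2 fold change is limma's moderated one, with the gene's variance drawn toward the trend over all tested genes. Mean Ifi27l2a was 19.3 ± 10.4 FPKM in sham and 12.8 ± 2.16 FPKM in LAS (SD, n = 3 each), a log2 difference of -0.48 ± 0.34. Ifit3 differed by -0.47 ± 0.23, Usp18 by -0.39 ± 0.42, Ifit1 by -0.36 ± 0.29, Bst2 by -0.30 ± 0.26, Irf7 by -0.29 ± 0.39 and Oasl2 by -0.07 ± 0.14.

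The LAS and sham values overlapped in all 9 genes. Groups did not overlap in 5.89% of tested genes with LAS higher and in 3.81% with LAS lower. By limma with Benjamini-Hochberg adjustment (adjusted p 0.05 or less, fold 1.5 or more), 0 of the 9 genes were called and 0% of the 14006 tested genes in either direction. The smallest adjusted p of any gene was 0.862, and 495 genes (3.53%) had an unadjusted p of 0.05 or less.

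Leaving out sham replicate 3 changed this difference. The median log2 fold change of the 9 genes was then 0.01, against 0.02 for all tested genes, with 5 genes higher and 4 lower in LAS. Of all tested genes 58.1% were then higher and 41.9% lower. Ifit1 went from -0.36 to -0.00 ± 0.11, Bst2 to 0.01 ± 0.14 and Ifi27l2a to -0.06 ± 0.15. Ifit3 was then lowest at -0.25 ± 0.18, with Isg15 at -0.16 ± 0.12. On the other side, Rsad2 was at 0.52 ± 0.20, Irf7 at 0.14 ± 0.23, Oasl2 at 0.09 ± 0.06 and Usp18 at 0.03 ± 0.32. In 2 of the 9, Oasl2 and Rsad2, LAS was higher with no overlap, as in 17.6% of tested genes, and in 0 it was lower with no overlap, as in 11.3%. Again 0 of the 9 and 0% of tested genes in either direction were called by limma, the smallest adjusted p being 0.137, and 1425 genes (10.2%) having an unadjusted p of 0.05 or less.

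**Figure D3:**
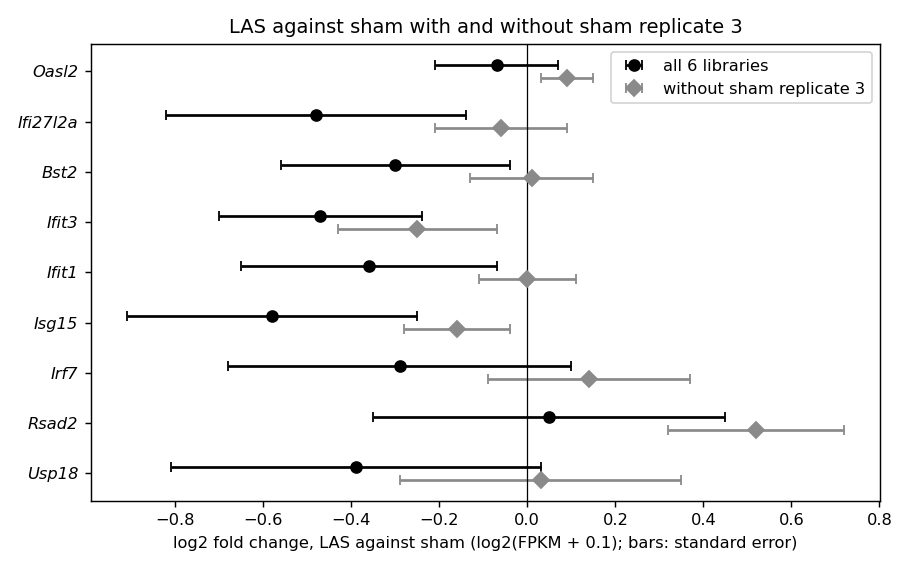
Log2 fold change of LAS against sham for the 9 genes, with standard errors, from all 6 libraries and without sham replicate 3. With all 6 libraries 8 of the 9 points lie below 0, and without sham replicate 3 they lie on both sides of it, from -0.25 for Ifit3 to 0.52 for Rsad2.

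Variation among sham libraries, with sham replicate 3 included, was wider than among LAS libraries. The median SD of log2 levels was 0.72 in sham and 0.25 in LAS for the 9 genes, and 0.13 and 0.09 for all tested genes. Sham replicates 1 and 2 differed from each other by a median of 0.22 on the log2 scale, against 0.09 over all tested genes. These are differences between 2 libraries and not SDs. Centred on each gene's mean, the 9 genes averaged 0.87 ± 0.24 (SD over the 9 genes) in sham replicate 3, 0.12 ± 0.19 in LAS replicate 1 and -0.34 ± 0.20 in LAS replicate 3. In each of the other 3 libraries the mean lay between -0.29 and -0.10.

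Other genes of the interferon pathway were followed through lists by role, 136 symbols in all, of which 122 had a value and 101 were tested. With all 6 libraries 27 of the 101 were higher and 74 lower in LAS, and limma called 0. Unadjusted p was 0.05 or less in 2 of them. The median log2 fold change was -0.09. Without sham replicate 3, 56 were higher and 45 lower, limma called 0 (unadjusted p was 0.05 or less in 5), and the median was 0.01. Of the 101 genes, 70 (69.3%) were highest in sham replicate 3, with Ifit1bl2 level there and in LAS replicate 2. In 29 (28.7%), the level there was at least 1.5 times the mean of the other libraries.

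The interferons themselves were barely measured. Of 13 ligand genes, 6 were blank in every library, including Ifnb1, and 4 were listed at 0 in every library. Ifng, the type II interferon, was at 0.04 FPKM in LAS replicate 1 and sham replicate 3 and listed at 0 in the others. None of the 13 passed the filter.

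In sham replicate 3 every tested receptor and JAK-STAT gene lay nearer to its level in the other 5 libraries than any of the 9 genes did. Ifnar2, a chain of the type I receptor, was at 16.91, 18.71 and 23.09 FPKM in sham and at 16.22, 19.13 and 17.75 FPKM in LAS libraries. Jak1, by contrast, was lowest in sham replicate 3, at 86.06 FPKM against 87.99 to 95.78 FPKM elsewhere. Against the mean of the other 5 libraries, the median log2 level in sham replicate 3 was 0.28 for 5 receptor genes, 0.16 for 6 JAK-STAT genes and 0.10 for 5 negative regulators, and 1.10 for the 9 interferon-stimulated genes. In all tested genes it was 0.03. The median was larger for 3 ISG15 conjugation genes (0.54), 31 other antiviral effectors (0.52) and 10 MHC class I genes (0.49). The remaining pathway lists lay between 0.17 and 0.33.

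Among negative regulators, Pias1, which restrains STAT proteins, was at 9.82, 9.32 and 8.83 FPKM in sham and at 10.87, 10.45 and 10.48 FPKM in LAS libraries. All 3 LAS values were above all 3 sham values, with a log2 fold change of 0.18 ± 0.07, an unadjusted p of 0.0263 and a limma adjusted p of 1.00. Without sham replicate 3 it was 0.15 ± 0.06, with a limma adjusted p of 0.490. Tyk2 and Irf9, parts of the receptor signal, lay below sham in all 3 LAS libraries, by -0.16 ± 0.08 and -0.18 ± 0.08 on the log2 scale. Their limma adjusted p was 1.00 as well. Without sham replicate 3 the differences were -0.11 ± 0.08 and -0.12 ± 0.07. Neither was named by rule, and both were picked after their values were seen. Over the 101 tested pathway genes, groups did not overlap in 3 with LAS higher and in 5 with LAS lower. Of all tested genes, 5.89% and 3.81% did so. Without sham replicate 3 these counts were 17 and 6 of the 101, against 17.6% and 11.3% of all tested genes.

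Among other genes of the IRF family, 5 of the 6 tested were highest in sham replicate 3. In the nucleic acid sensing list 6 of 14 tested genes were. Over all tested genes the share was 33.7%. Irf3, which acts with Irf7 in sensing, was at 14.56 to 15.78 FPKM in 5 libraries and at 19.78 FPKM in sham replicate 3. Irf8, a factor of myeloid and dendritic cells picked after its values were seen, was at 1.13, 1.21 and 4.65 FPKM in sham and at 2.02, 1.14 and 1.25 FPKM in LAS libraries. Its ratio in sham replicate 3, 3.44 times the mean of the other 5, was above that of any of the 9 genes. Tbk1, a kinase that activates Irf3 and Irf7, was at 17.55 to 18.91 FPKM throughout.

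The ISG15 conjugation genes act with Isg15 and Usp18. Ube2l6, the conjugating enzyme, was at 22.74, 20.56 and 41.83 FPKM in sham and at 27.00, 26.01 and 25.01 FPKM in LAS libraries. With all 6 libraries the groups overlapped and its log2 fold change was -0.05 ± 0.25 (limma adjusted p of 1.00). Without sham replicate 3 it was 0.26 ± 0.06 (limma adjusted p of 0.358), the 3 LAS values all lying above both sham values, so the direction turned. Uba7, the activating enzyme, was highest in sham replicate 3 at 3.90 FPKM, against 2.22 to 2.96 FPKM elsewhere.

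Relatives of the IFIT and OAS genes were followed in the same way. Ifit2 was at 8.97 FPKM there and at 6.89 to 7.69 FPKM elsewhere, and Ifit1bl1 at 2.64 FPKM there and at 0.92 to 1.53 FPKM elsewhere. All 4 other IFIT genes were highest in sham replicate 3, though Ifit1bl2 was at 0.57 FPKM in LAS replicate 2 as well. In the OAS list Oas1a was at 2.56 FPKM there and at 0.96 to 1.72 FPKM elsewhere, while Oas1c was highest in LAS replicate 2, at 7.56 FPKM.

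Effectors outside these families formed the largest list, with 31 tested genes. Of these, 6 were higher and 25 lower in LAS with all 6 libraries, and 17 higher and 14 lower without sham replicate 3, with 0 called by limma in both fits and unadjusted p 0.05 or less for 1 gene in each. Xaf1, an interferon-induced promoter of cell death named after its values were seen, was at 8.81, 8.78 and 11.21 FPKM in sham and at 6.57, 8.24 and 7.98 FPKM in LAS libraries. It was below sham in all 3 LAS libraries, by -0.33 ± 0.13 on the log2 scale with all 6 libraries (limma adjusted p of 1.00) and by -0.22 ± 0.11 without sham replicate 3 (limma adjusted p of 0.526). Ifitm3, which blocks virus entry, was at 74.09 FPKM in sham replicate 3 and at 37.29 to 57.20 FPKM elsewhere. Ifi27, the highest of the list at 73.9 FPKM on average, was at 85.26 FPKM in sham replicate 3 and at 67.27 to 76.28 FPKM elsewhere.

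All 10 genes of MHC class I presentation were highest in sham replicate 3. B2m, the light chain of MHC class I, was at 165.75, 167.69 and 243.54 FPKM in sham and at 183.05, 197.07 and 185.77 FPKM in LAS libraries. With all 6 libraries the groups overlapped and the log2 difference was -0.00 ± 0.15 (limma adjusted p of 1.00). It was 0.18 ± 0.05 without sham replicate 3 (limma adjusted p of 0.376). Of 13 tested GTPase and chemokine genes induced by interferon-gamma, 8 were highest in sham replicate 3. With all 6 libraries 12 of the 13 were lower in LAS and 1 higher, with a median log2 fold change of -0.13. Without sham replicate 3, 10 were lower and 3 higher, with a median of -0.06. Over all tested genes 48.3% and then 41.9% were lower. In both fits limma called 0 of the 13. Igtp, the highest of this list, was at 9.41, 9.89 and 14.46 FPKM in sham and at 12.38, 10.54 and 8.94 FPKM in LAS libraries. Gbp2, next in level, was at 4.8 FPKM in both sham replicate 1 and LAS replicate 1, and at 4.32 FPKM in sham replicate 3. The list's median log2 level in sham replicate 3 over the other 5 libraries was 0.24, and in LAS replicate 1 over the 4 remaining libraries 0.35.

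**Figure D4:**
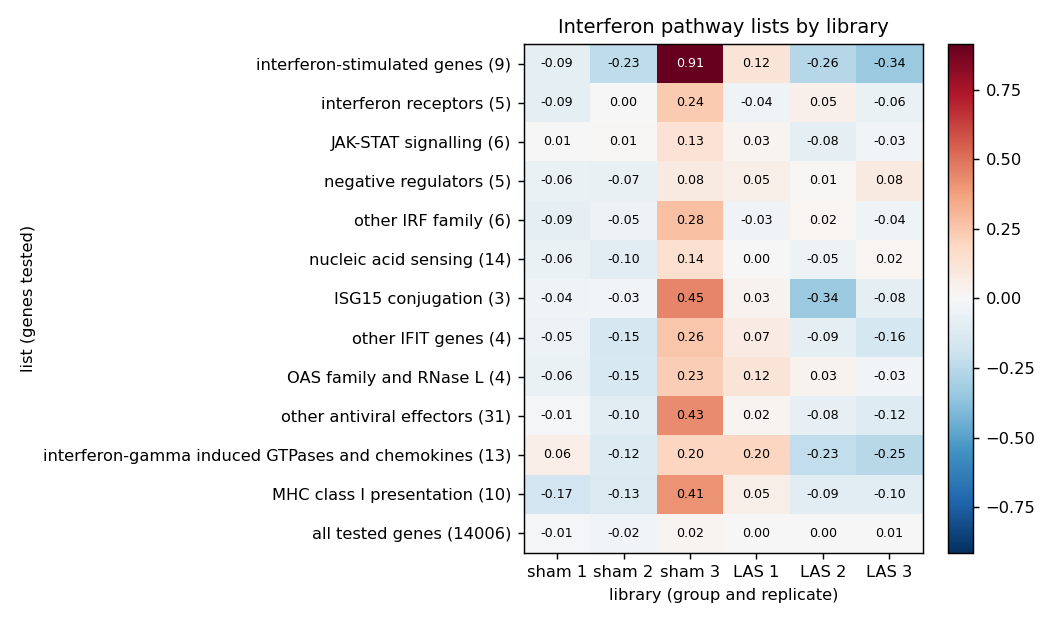
Median log2 level over the genes of each list, in each library, relative to each gene's mean over the 6 libraries, with the number of genes tested in brackets. The row of the 9 interferon-stimulated genes stands at 0.91 in sham replicate 3, against 0.08 for the negative regulators, 0.13 for JAK-STAT genes and 0.02 for all tested genes there. Next below the 9 genes there are ISG15 conjugation at 0.45, other antiviral effectors at 0.43 and MHC class I presentation at 0.41.

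The 8 tested genes outside the 9 whose profile over the 6 libraries was nearest to the mean profile of the 9 were Apobec3, Il18bp, Ms4a6b, Ibsp, Gpsm3, Tap1, Gpr65 and Aurka. Likeness was the root mean square difference of centred log2 levels, which was 0.078 for Apobec3 and 0.115 for Aurka, with a median of 0.428 over all other tested genes. Among the 9 themselves it ran from 0.057 for Bst2 to 0.261 for Oasl2. Each of the 9 helped to form the mean profile, which makes its own difference smaller. These values are therefore not comparable with those of the other genes. Apobec3, a deaminase that restricts retroviruses, was at 2.92, 2.83 and 6.01 FPKM in sham and at 3.47, 2.41 and 2.64 FPKM in LAS libraries. Apobec3 and Tap1, a peptide transporter of MHC class I, are on the pathway lists, and the other 6 are not.

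Markers of some cell types also moved with sham replicate 3, and their part in the levels of the 9 genes was not tested. Other marker sums there were near the mean of the other 5 libraries. They were 1.03 times that mean for Schwann cells, 1.06 for endothelium, 0.97 for fibroblasts and 1.09 for satellite glia. For leptomeninges the sum was 0.62 times that mean. In bulk RNA, fewer cells of a type and less RNA per cell cannot be told apart. All 9 neutrophil markers were highest in sham replicate 3, with a summed level of 2034 FPKM against 65.5 to 407 FPKM in the other 5 libraries. All 9 were next highest in LAS replicate 1, the library that also came next for 7 of the 9 interferon-stimulated genes. S100a8, the highest of that list, reached 549.93 FPKM in sham replicate 3 and 109.18 FPKM in LAS replicate 1, the rest lying within 17.65 to 66.33 FPKM.

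All 6 red cell markers were also highest in sham replicate 3, with a sum of 14139 FPKM against 3618 to 6424 FPKM elsewhere. The sum of 7 skeletal muscle markers, all highest in that library, was 1738 FPKM there and 27.6 to 214 FPKM elsewhere. Acta1, skeletal muscle actin, was at 522.82 FPKM in sham replicate 3 and at 7.86 to 61.88 FPKM elsewhere. Adipocyte markers showed the same pattern in 5 of 6 genes, and 2 of the 6 were listed at 0 in at least 1 library. Their sum was 53.8 FPKM in sham replicate 3 and 1.98 to 16.6 FPKM elsewhere. For the 9 interferon-stimulated genes the sum was 135 FPKM in sham replicate 3 and 62.7 to 81.4 FPKM elsewhere.

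Plasmacytoid dendritic cells, a main source of type I interferon, share Bst2 as a marker, so it was left out of their list. Of the 5 other markers, 4 were highest in sham replicate 3, and their sum was 30.1 FPKM there and 5.86 to 9.10 FPKM elsewhere. Most of the 30.1 FPKM came from Cox6a2, at 23.76 FPKM, a gene also used by muscle. Ccr9 and Klk1 were listed at 0 in at least 1 library. Siglech was at 0.41 to 1.38 FPKM. The T and NK cell sum was 4.36 FPKM in sham replicate 3 and 1.41 to 2.54 FPKM elsewhere, with 3 of 7 markers highest in that library. Most of the 4.36 FPKM came from Nkg7, at 2.95 FPKM against 0.20 to 0.92 FPKM elsewhere. Of the 7 markers, only this 1 passed the filter on low values. For macrophages the sum was 37.2 FPKM in sham replicate 3 and 23.4 to 31.0 FPKM elsewhere, with 3 of 7 markers highest there. Cx3cr1, another of the 7, was lowest there, at 1.16 FPKM against 1.29 to 1.69 FPKM elsewhere.

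**Figure D5:**
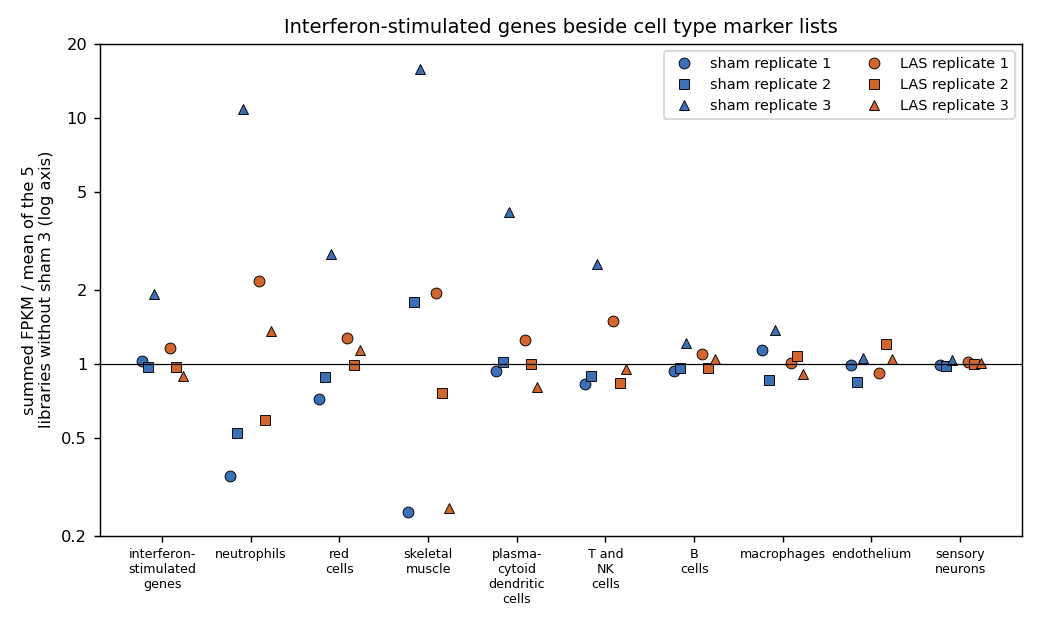
Summed FPKM of the 9 interferon-stimulated genes and of the marker lists in each library, relative to the mean of the 5 libraries without sham replicate 3 (log axis). Sham replicate 3 lies at 1.92 for the 9 genes, 10.9 for neutrophils, 15.8 for skeletal muscle and 1.04 for sensory neurons.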

How the data were processed

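For 6 DRG libraries the authors deposited FPKM per gene, to 2 decimals, from reads they mapped to the mouse genome. The aligner and build: not given in the sources used here. Their own p-value, q-value and log2 fold change for LAS against sham, also deposited, were not used. The FPKM carry no read counts: of 134 low values, 31.3% lay within 0.15 of a whole multiple of the lowest.

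The members and lists were chosen with earlier results of these data known. log2(FPKM + 0.1) was fitted with limma 3.58.1 (R 4.3.3; trended variance, two-sided p, Benjamini-Hochberg adjustment) over the 14006 genes at 0.5 FPKM or more in 3 or more libraries. The fit was also run on simulated data. There each gene had the same spread in every library, and no library stood apart as sham replicate 3 does. That run therefore does not give the power of the fit in these libraries. Named are the 9 members, a selection from the 3 highest genes of each pathway list, the 8 genes nearest in profile and the highest gene of a marker list. Shared sequence was counted as 50-base words of transcripts in GENCODE. Promoters are RefSeq's. Alternatives changed the pseudocount, filter, scaling, variance model, threshold and libraries. Tables were handled in Python 3.11.15 with pandas 2.3.3 and NumPy 2.4.6. Usp41, Oas1b, Mx1, Mx2, Mnda and Trac were not analysed here. Some genes that the naming rule takes are left out of the text.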

Additional observations from a re-analysis of the deposited data

How the results depend on the processing

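In each alternative fit run, limma called 0 genes, members and pathway genes included. Unadjusted p was 0.05 or less for 288 to 1487 genes, and the smallest adjusted p ran from 0.0525 to 1. The median log2 fold change of the 9 genes, -0.36 with all 6 libraries, ran from -0.37 to -0.28 over 2 other pseudocounts, 2 other filters and 2 other scalings, with Rsad2 the gene above 0. Leaving out 1 library moved it from -0.61 (without sham replicate 2) to 0.01 (without sham replicate 3). The 101 pathway genes had 17 to 56 higher in LAS over these fits. Weighting libraries by limma's arrayWeights gave -0.10, with 2 genes higher and 7 lower. Without both sham replicate 3 and LAS replicate 1, a choice made after seeing the data, it was -0.13, with 2 higher and 7 lower. The filter of 1 FPKM in all 6 libraries dropped Usp18.

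Replicate numbers are shared between groups. With the replicate number as a block the median stayed at -0.36, limma called 0 genes, and unadjusted p was 0.05 or less for 321 genes in place of 495. Same-numbered libraries did not deviate together in every pair: the correlations were -0.407, 0.238 and -0.151 for numbers 1 to 3, and LAS replicate 1 correlated best with sham replicate 3 (0.432). These correlations come from few libraries, with sham replicate 3 apart, so they cannot decide whether same-numbered samples were handled together. The main fit does not pair the samples.

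With more ISRE letters required, a C after the core, 4 of 7 promoters matched (0.819% of all). With only the bases before the start, 5 of 7 did (2.98% of all). FPKM carry no depth, so precision rests on 3 libraries a group, and 1 of the 3 sham libraries stands apart.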
